A study of Mus musculus with 10 samples.

Results

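Common TET2 regions in gene flanks are stretches of the mouse genome that gave a peak with both an antibody to TET2 and a FLAG resin, no peak in cells lacking the matching epitope, and that lie beside a protein-coding gene and not in it. Joining the peaks of all 8 lists at 1 shared bp gave 79350 merged regions. Members were chosen by their peak calls and their position. A region was a member if it had a peak in the 4 target lists (wild type and FLAG-TET2, 2 libraries each) and in none of the 4 control lists (knockout and parental, 2 each), touched no protein-coding gene span and lay over 1 kb and at most 50 kb from the nearest one. The rule found 1418 members among 4521 common regions of any position and 19220 merged regions of any kind in gene flanks. Without wild type replicate 2 it would have found 2327, and with every list shortened to the length of the shortest, 85. The members follow from the peak calls, so their count, their folds beside all peaks and their absence from control lists are descriptions and carry no test. Their fold percentile was tested only against common regions at other positions, which passed the same peak rule. The control part of that rule removed unlike shares by position, so the sets compared were not filtered alike.

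The data are chromatin immunoprecipitations followed by sequencing (ChIP-seq) from mouse embryonic stem (ES) cells, crosslinked with disuccinimidyl glutarate and formaldehyde. Wild-type libraries came from Tet2fl/fl cells and knockout libraries from Tet2-/- cells, both precipitated with a rabbit antibody to the N-terminal part of TET2. FLAG-TET2 libraries came from Tet2fl/fl cells whose endogenous TET2 carries a 2x-Flag tag, and parental libraries from Tet2fl/fl cells with no tag, both precipitated with anti-FLAG M2 affinity gel. All cells grew on gelatin with serum, LIF, a GSK-3 inhibitor (CHIR99021) and a MEK1 inhibitor (PD0325901). The labels say neither whether a line is a single clone nor whether replicates are separate cultures, so the spread between replicates may be technical. ChIP-seq peaks do not measure expression and cannot check the labelled cell type.

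The lists differed in length, from 18820 to 63578 peaks in target libraries and from 2259 to 36518 in control libraries on assembled chromosomes, with unknown sequencing depth. Of the regions with a peak in all 4 target lists, 58.6% of the 2420 in gene flanks had no control peak, 8.89% of the 5098 at gene ends (no more than 1 kb from where a gene span starts or stops), 59.7% of the 3438 in gene bodies and 60.5% of the 986 over 50 kb away, against 37.9% of the 11942 at all positions. The control lists differed in this. Parental replicate 1 had a peak in 87.8% of these regions at gene ends and 29.5% in gene flanks, the most of any control list. The shares were 46.0% and 8.43% for parental replicate 2, 42.0% and 21.8% for knockout replicate 2, and 9.81% and 2.85% for knockout replicate 1. Without knockout replicate 1 the members were the same 1418. Members made up 7.38% of all merged regions in gene flanks. Common regions made up 2.55% of merged regions at gene ends, 6.97% in gene bodies, 4.62% over 50 kb away and 5.7% at all positions.

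TET2 is a dioxygenase that oxidises 5-methylcytosine to 5-hydroxymethylcytosine and further products, a step in the removal of DNA methylation. It lacks the DNA-binding CXXC domain that TET1 and TET3 carry, and reaches chromatin largely through other proteins. In ES cells TET enzymes are known for keeping enhancers low in methylation, and many enhancers lie in the DNA beside genes. The regions described here lie in such flanking DNA. No mark of enhancers was analysed here.

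Some members lie over the start of a long non-coding RNA (lncRNA) gene, and these are the stretches whose letters can be shown. RefSeq promoter windows, from 250 bases before to 50 after a start (GRCm38.p6, the build of mm10), shared bases with a member at 26 lncRNA genes, and at 11 of these genes a window lay wholly inside the member. The 4 with the highest ranked members follow, with Platr6, a lncRNA named for its expression in pluripotent cells, of whose window 157 of 300 bases lie in the member. Each is written in the direction of transcription with CG pairs, the substrate context of TET enzymes, in capitals.
Gm34201 promoter: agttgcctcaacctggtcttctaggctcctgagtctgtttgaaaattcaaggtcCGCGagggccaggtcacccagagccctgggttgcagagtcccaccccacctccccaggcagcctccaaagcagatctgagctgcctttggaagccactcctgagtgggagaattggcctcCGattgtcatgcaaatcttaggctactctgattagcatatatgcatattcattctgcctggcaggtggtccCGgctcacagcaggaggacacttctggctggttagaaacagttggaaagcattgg
4930543E12Rik promoter: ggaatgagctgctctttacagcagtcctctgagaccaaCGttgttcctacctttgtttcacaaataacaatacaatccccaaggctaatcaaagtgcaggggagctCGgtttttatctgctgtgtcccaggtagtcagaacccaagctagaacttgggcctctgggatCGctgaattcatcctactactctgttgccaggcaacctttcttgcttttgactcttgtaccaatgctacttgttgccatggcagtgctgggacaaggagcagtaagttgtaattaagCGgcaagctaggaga
Gm38424 promoter: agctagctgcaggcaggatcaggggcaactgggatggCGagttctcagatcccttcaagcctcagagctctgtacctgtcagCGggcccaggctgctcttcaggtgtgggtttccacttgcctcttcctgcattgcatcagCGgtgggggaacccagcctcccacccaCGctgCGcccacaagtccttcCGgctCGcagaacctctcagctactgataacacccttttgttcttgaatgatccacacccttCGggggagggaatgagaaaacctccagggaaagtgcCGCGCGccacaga
Gm13853 promoter: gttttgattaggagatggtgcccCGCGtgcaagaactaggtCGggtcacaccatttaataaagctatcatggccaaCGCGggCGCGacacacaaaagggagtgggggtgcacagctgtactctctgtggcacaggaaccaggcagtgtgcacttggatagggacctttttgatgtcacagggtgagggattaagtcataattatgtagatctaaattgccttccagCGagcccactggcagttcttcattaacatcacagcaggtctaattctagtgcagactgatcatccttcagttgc
Platr6 promoter: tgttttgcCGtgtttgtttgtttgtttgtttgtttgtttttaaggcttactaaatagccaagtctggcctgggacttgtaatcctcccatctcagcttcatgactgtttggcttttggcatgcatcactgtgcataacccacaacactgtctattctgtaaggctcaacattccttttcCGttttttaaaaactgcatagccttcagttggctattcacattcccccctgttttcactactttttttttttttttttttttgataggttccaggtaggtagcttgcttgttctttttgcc

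These windows lie on GRCm38 at chr15:84622114-84622413 (minus strand, Gm34201), chr7:113141966-113142265 (minus, 4930543E12Rik), chr5:31596693-31596992 (plus, Gm38424), chr6:33992368-33992667 (minus, Gm13853) and chr10:21845984-21846283 (minus, Platr6). CG pairs numbered 4, 4, 11, 8 and 2 in the order printed. The 26 windows that share bases with a member had a median of 5 CG pairs, and the 11 wholly inside one had 8, against 4 over 11586 lncRNA windows and 7 over 32841 promoter windows of any kind. The median CpG observed over expected ratio was 0.297 for the 26 and 0.402 for the 11, against 0.245 for lncRNA windows and 0.384 for all promoter windows. A member shared bases with a lncRNA window in 26 of 1418 cases (1.83%), against 1.93% of all merged flank regions and 3.93% of flank regions with a peak in at least 2 control lists.

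Short motifs were counted on both strands. The POU factor octamer ATGCAAAT was found in 3 of the 26 windows (11.5%), the one of Gm34201 among them, against 1.87% of all lncRNA windows and 1.74% of all promoter windows. The KLF motif CCACACCC was found in 3 (11.5%), Gm38424 among them, against 3.44% of lncRNA windows. The ESRRB motif AAGGTCA was found in 3 (11.5%), against 5.90%. The SOX motif CATTGTT was found in 2 (7.69%, against 4.76%), the TCF/LEF motif ATCAAAG in 2, 4930543E12Rik among them (7.69%, against 4.67%), and the E-box CACGTG in 2 (7.69%, against 5.90%). No window held the STAT motif TTCCNGGAA, which 1.10% of lncRNA windows hold. Over all promoter windows the shares were 3.56% (KLF), 4.72% (ESRRB), 3.78% (SOX), 3.73% (TCF/LEF) and 7.15% (E-box). Whole windows were searched, so a motif may lie outside the member. In the 11 windows wholly inside a member, the KLF motif was found in 2. The octamer, ESRRB, SOX, TCF/LEF and E-box motifs were found in 1 each. Each count is of at most 3 windows and describes letters, not binding sites.

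The member over the start of Gm34201 (chr15:84622030-84622422, 40.8 kb upstream of Prr5) had folds (the authors' enrichment at the peak summit) of 19.7 and 10.0 in wild-type replicates 1 and 2, and 23.0 and 14.2 in FLAG-TET2 libraries of the same numbers. The one over 4930543E12Rik (chr7:113141940-113142759, 35.7 kb upstream of the circadian regulator gene Arntl) had folds of 15.6 and 8.48 in wild-type libraries, and 21.4 and 17.4 in FLAG-TET2 libraries. The member at Platr6 (chr10:21845629-21846140, 36 kb upstream of the kinase gene Sgk1) had folds of 13.2 and 7.92 in wild-type libraries, and 11.3 and 11.5 in FLAG-TET2 libraries. By mean percentile of fold over the 4 lists these ranked 73, 135 and 330 among members. Of 17 Platr genes in the gene table, 3 (Platr3, Platr6 and Platr21) had a member within 5 kb, and 13 had a merged flank region of any kind. The 1 Panct gene, Panct2, had a member as well. The same share over all lncRNA genes was not computed, so these counts cannot show a preference for either family.

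Members also lie beside microRNA (miRNA) genes. A miRNA gene lay within 10 kb of 24 of them (1.69%), close to the 1.45% of all merged flank regions and 1.5% of flank regions with at least 2 control lists. The Mir290 to Mir295 cluster, whose miRNAs are the most abundant of mouse ES cells and promote their cell cycle, starts 4.61 kb from a member at chr7:3212964-3214021, 4.62 kb downstream of the coding gene Nlrp12. Of its mature 3p strands in the RefSeq table, those whose seeds begin with AAGUGC follow, with the seed, bases 2 to 8, in capitals.
miR-290a-3p: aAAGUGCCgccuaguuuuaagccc
miR-291a-3p: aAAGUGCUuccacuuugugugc
miR-291b-3p: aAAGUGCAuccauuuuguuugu
miR-294-3p: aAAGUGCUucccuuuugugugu
miR-295-3p: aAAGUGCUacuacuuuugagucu
miR-291a-3p, miR-294-3p and miR-295-3p share the seed AAGUGCU, and those of miR-290a-3p (AAGUGCC) and miR-291b-3p (AAGUGCA) end in another base. This member had folds of 9.16 and 8.19 in wild-type replicates 1 and 2, and 12.6 and 7.06 in FLAG-TET2 replicates 1 and 2, and ranked 576 among members. It is 1058 bp wide, against a median member width of 437.5 bp.

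A second miRNA group, Mir182, Mir96 and Mir183, known best from sensory cells, holds a member between its genes. The member (chr6:30167222-30167694, rank 1064) lies 1.23 kb from Mir182 on one side and 1.75 kb from Mir96 on the other.
miR-182-5p: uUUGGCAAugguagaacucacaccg
miR-96-5p: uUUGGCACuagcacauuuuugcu
miR-183-5p: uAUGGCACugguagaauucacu
Its folds were 11.6 and 6.51 in wild-type libraries, and 8.95 and 4.93 in FLAG-TET2 libraries. A member 1.59 kb from Mir181c and 1.75 kb from Mir181d, upstream of the germ cell gene Nanos3 (chr8:84180533-84181411), had folds of 16.5 and 11.8 in wild-type libraries, and 10.3 and 4.37 in FLAG-TET2 libraries. Among members it ranked 170 and 105 in the wild-type lists, and 948 and 1338 in the FLAG-TET2 lists.
miR-181c-5p: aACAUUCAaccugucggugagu
miR-181d-5p: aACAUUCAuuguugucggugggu
miR-181c-5p and miR-181d-5p share the seed ACAUUCA, and miR-182-5p, miR-96-5p and miR-183-5p have 3 different seeds.

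The position of peaks was compared between libraries, over all peaks of a list and not over members. Wild-type replicates 1 and 2 had 22.4% and 20.5% of their peaks in gene flanks, and knockout replicates 1 and 2 had 15.4% and 19.0%. FLAG-TET2 replicates 1 and 2 had 23.8% and 21.2%, and parental replicates 1 and 2 had 18.3% and 16.6%. Every target library was above every control library. The mean was 22.0% ± 1.44 in target and 17.3% ± 1.64 in control libraries (SD, n = 4 each), a difference of 4.65 percentage points. It was 4.25 points with the TET2 antibody and 5.04 with the FLAG resin. A two-sided exact permutation test within each reagent gave p = 0.0556, the smallest that its 36 arrangements allow. With labels permuted over all 8 libraries, which ignores the reagent, the exact p was 0.0286, again the smallest possible.

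**Figure D1:**
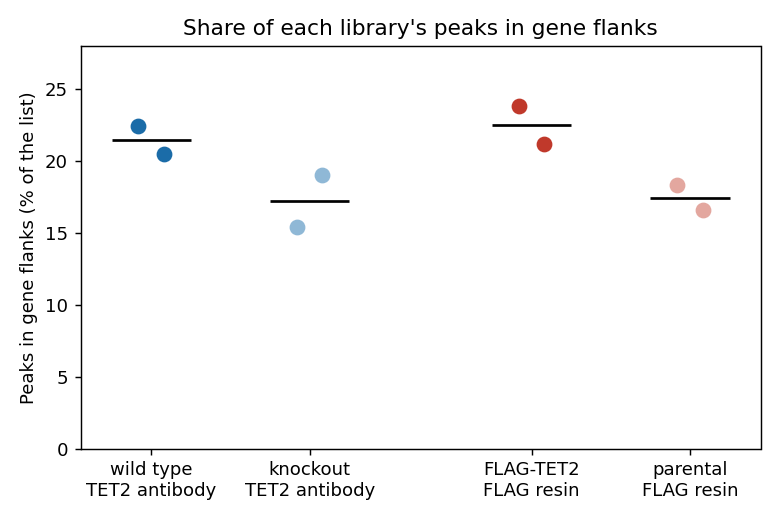
Share of each library's peaks that lie over 1 kb and at most 50 kb from a protein-coding gene (vertical axis, percent of the list), for the TET2 antibody (left pair of groups) and the FLAG resin (right pair). Points are libraries and bars are group means; the 4 target libraries sit between 20.5% and 23.8% and the 4 control libraries between 15.4% and 19.0%.

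Gene ends held 35.0% and 41.5% of wild-type peaks and 49.4% and 43.1% of knockout peaks, and 24.5% and 35.0% of FLAG-TET2 peaks and 34.3% and 41.8% of parental peaks. With gene end peaks left out of each list, an alternative chosen after seeing the data, the difference was 3.34 points (exact permutation p = 0.0556, the smallest possible). Knockout replicate 2, at 33.4%, was then above both FLAG-TET2 libraries, at 31.5% and 32.6%. With every list shortened to the same number of leading peaks the difference was 7.27 points. It was then 12.4 points with the TET2 antibody and 2.1 with the FLAG resin, so it was larger with the antibody and smaller with the resin than over the full lists.

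In each target list the median fold of members was above that of all peaks. The fold is the authors' own enrichment at the peak summit over their control track, and it is used only within a list. Over the 1418 members its median was 10.7 in wild-type replicate 1 (from 3.14 to 34.0), and 6.998 in wild-type replicate 2 (2.86 to 24.0). It was 12.3 in FLAG-TET2 replicate 1 (3.78 to 36.4), and 7.29 in FLAG-TET2 replicate 2 (2.73 to 24.7). The median over all peaks of those lists was 6.61, 6.22, 6.92 and 6.34 in the same order. The list in which a member had its lowest −log10 q value was wild-type replicate 2 for 53.1% of members and FLAG-TET2 replicate 2 for 44.3%.

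**Figure D2:**
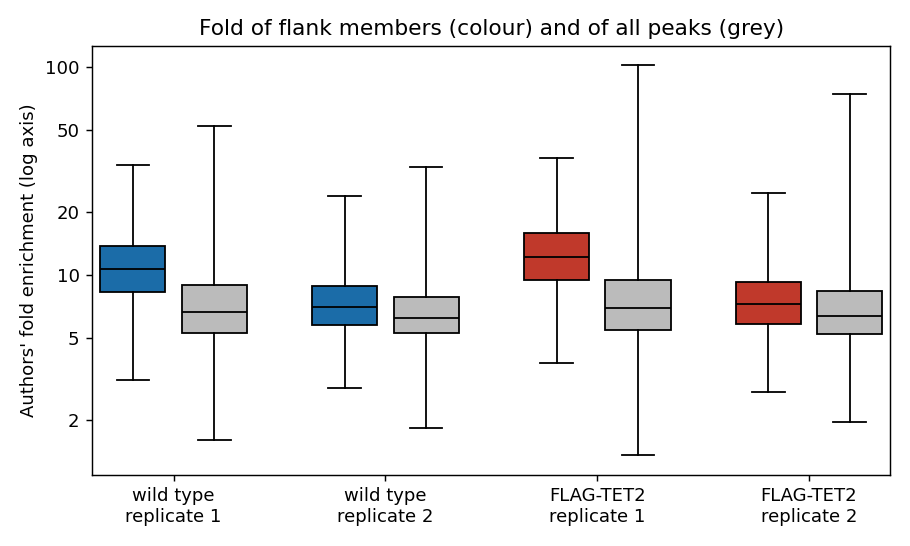
Authors' fold enrichment (log axis) of the 1418 flank members (coloured boxes) beside all peaks of the same target list, members included (grey boxes). Boxes span the quartiles with the median as a line, and whiskers run to the lowest and highest value; member medians are 10.7, 6.998, 12.3 and 7.29 from left to right.

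To set members beside common regions at other positions, each fold was turned into a percentile within its own list. The median percentile of members was 84.7 and 64.8 in wild-type replicates 1 and 2, and 86.0 and 64.9 in FLAG-TET2 replicates 1 and 2. Common regions at all other positions had medians of 83.0 and 60.4 in wild-type libraries, and 84.2 and 63.2 in FLAG-TET2 libraries. Members were higher in 4 of 4 libraries, by 2.43 ± 1.35 percentile points (SD, n = 4), with an exact two-sided sign-flip permutation p = 0.125, the smallest that 4 libraries allow. The difference was largest against common regions at gene ends, at 12.9 points. It was 0.895 points against those in gene bodies (exact permutation p = 0.625, higher in 3 of 4 libraries) and 0.521 points against those over 50 kb away (exact permutation p = 0.375, higher in 3 of 4). Of regions in all 4 target lists, 8.89% at gene ends and 58.6% in gene flanks had no control peak. The pooled test cannot separate position from this unequal filtering.

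The 4 target libraries placed their summits close together in a member. The rule set no summit distance, but it joined overlapping peaks, with median widths of 235 to 278 bp in the target lists. Closeness is therefore partly built in, and no baseline from overlapping peaks outside common regions was computed. Over the 6 pairs of target libraries the median distance between summits ran from 23 to 27 bp, and 75.5% to 80.0% of members had summits within 50 bp. The smallest distance was between the wild-type replicates and the largest between wild-type replicate 2 and FLAG-TET2 replicate 2. All 4 summits fell within 100 bp of each other in 82.9% of members, in 82.5% of common regions in gene bodies and 83.1% of those over 50 kb away, against 68.9% at gene ends. The folds of members ranked alike across libraries, with Spearman rank correlations of 0.685 between wild-type replicates, 0.735 between FLAG-TET2 replicates and 0.481 to 0.624 between the 2 reagents, as a description over the same 1418 regions.

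The strongest member by mean percentile over the 4 lists lay 2.74 kb upstream of Max, whose product is the partner of MYC and of MGA on DNA (chr12:76965067-76965469). Its folds were 29.8 and 19.8 in wild-type libraries, and 35.4 and 24.7 in FLAG-TET2 libraries. The fold in FLAG-TET2 replicate 2 was the highest of any member in that list. Next came a member 45.3 kb downstream of Magi1, which encodes a scaffold of cell junctions (chr6:93629858-93630191), with folds of 29.7 and 17.3 in wild-type libraries, and 32.7 and 21.7 in FLAG-TET2 libraries. The member 1.35 kb upstream of Lama5, a laminin chain of basement membranes (chr2:180227258-180227936), had folds of 34.0 and 24.0 in wild-type libraries, and 36.4 and 18.8 in FLAG-TET2 libraries. It held the highest member fold in 3 of the 4 lists.

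The other leading members lay near genes of varied function. The one 21.4 kb downstream of Ahi1, a gene of the primary cilium (chr10:21101812-21102478), had folds of 31.4 and 19.1 in wild-type libraries, and 31.9 and 18.2 in FLAG-TET2 libraries. Near Sumo3, which encodes a small ubiquitin-like modifier, a member 2.71 kb upstream (chr10:77603008-77603391) had folds of 26.3 and 17.9 in wild-type libraries, and 28.2 and 17.5 in FLAG-TET2 libraries. Both stood among the first 15 members in each of the 4 lists. Near Msx2, a homeobox transcription factor gene of limb and craniofacial development, a member 5.06 kb downstream in the span of the lncRNA Gm33763 (chr13:53461275-53461821) had folds of 25.7 and 15.0 in wild-type libraries, and 30.0 and 17.4 in FLAG-TET2 libraries. Plekha5, Msmb, Mcf2l (a guanine nucleotide exchange factor), Shisa7, Khdrbs1 (the RNA-binding protein SAM68) and Cobl (an actin nucleator) complete the first 12. Their folds ran from 13.2 to 34.7 over the 4 lists.

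The weakest members were far closer to the bottom of their lists. The last 3 by percentile lay near Dnmt3b, a de novo DNA methyltransferase gene, Kdm7a, a histone demethylase gene, and Cd300lg. The one 6.03 kb upstream of Dnmt3b (chr2:153643061-153643383) had folds of 5.12 and 2.99 in wild-type libraries, and 5.26 and 2.73 in FLAG-TET2 libraries, and −log10 q values of 10.6 and 2.52, and 13.2 and 2.25. The lowest −log10 q of any peak was 2.03 in the wild-type replicate 2 list and 2.08 in the FLAG-TET2 replicate 2 list, close to the values of this member.

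Members had a median width of 437.5 bp, from 160 to 1422 bp, against 230 bp for all merged flank regions and 369.5 bp for flank regions with at least 2 control lists. Common regions had medians of 430 bp in gene bodies, 423 bp over 50 kb away and 473 bp at gene ends. A common region joins peaks of the 4 target lists. The widest lay near Nipal2 (1422 bp), Nynrin (1405 bp) and Otx2 (1333 bp). A member held 1 peak of each list in most cases, and between 33 and 49 members held more than 1 peak of a given list.

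Distance to the gene hardly told members from other flank regions. The median distance of members was 11.1 kb, against 12.1 kb for all 19220 merged flank regions and 11.8 kb for the 2140 flank regions with a peak in at least 2 control lists. Of the members, 124 lay within 2 kb of the gene, 243 from 2 to 5 kb, 307 from 5 to 10 kb, 324 from 10 to 20 kb and 420 from 20 to 50 kb. Members were 8.42% of merged flank regions in the nearest bin and 6.77% in the farthest. Their median mean percentile was 71.5 in the nearest bin and 71.8 in the farthest, so distant members ranked as high as near ones.

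**Figure D3:**
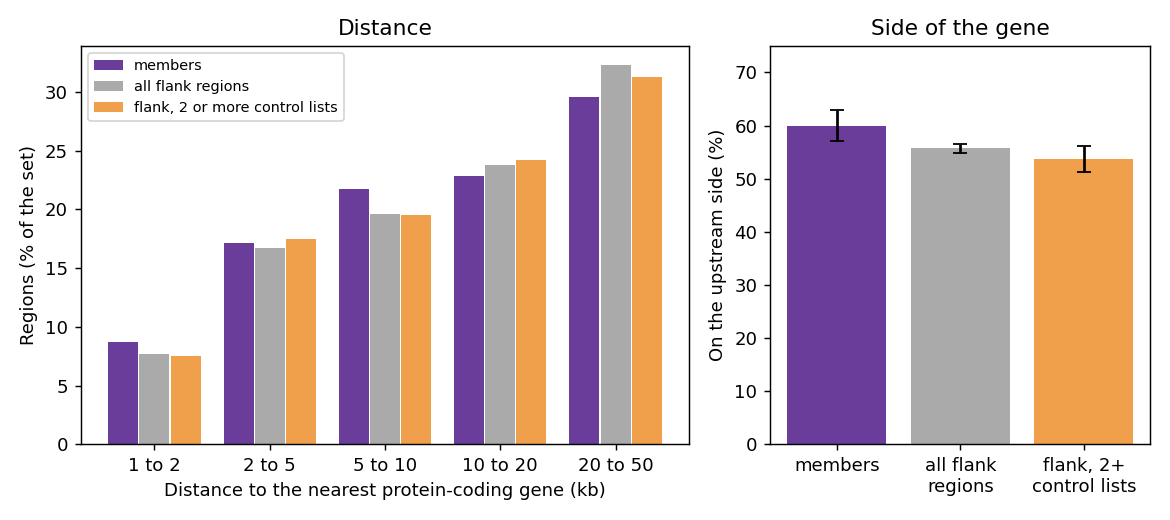
Left, the distance of members, all merged flank regions and flank regions with at least 2 control lists from the nearest protein-coding gene (kb), as a percent of each set. Right, the percent of the same sets on the upstream side of that gene, with exact 95% binomial intervals; members stand at 60%, all flank regions at 55.7% and control flank regions at 53.7%.

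Members lay more often upstream of their gene than downstream. The strand of the gene was known for 1091 members, of which 655 (60%, exact 95% binomial interval 57.1% to 63.0%) were on the upstream side. The share was 55.7% of 15009 merged flank regions (54.9% to 56.5%) and 53.7% of 1655 flank regions with at least 2 control lists (51.3% to 56.1%). It was 61.5% for members within 10 kb and 58.7% for those beyond. The intervals cover counting error only, regions are not replicates, and the difference between the sets was not tested.

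At the limits of the rule, the members just over 1 kb from a gene lay near Shf (1.005 kb) and Mrps5 (1.011 kb), and the common regions just under it near Snapc3 (0.993 kb) and Mroh6 (0.998 kb). The folds of the first pair ran from 3.83 to 14.5 and those of the second from 3.67 to 14.1. At the outer limit the last member lay near Tmco5 (49.85 kb), with folds from 5.12 to 7.22. The first regions beyond it, near Ccn6 (50.04 kb) and Med13l (50.08 kb), had folds from 6.06 to 13.5. Taken list by list, the folds of the pairs at the inner limit overlapped in every list. At the outer limit the member near Tmco5 was below both regions beyond it in every list. Another member just inside that limit is not reported here, so this contrast describes a single member and not a step at the limit. These are few regions, and the limits were not tested.

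Members sat in lncRNA spans about as often as other flank regions did. The count was 249 of 1418 (17.6%), against 17.4% of all merged flank regions and 18.4% of flank regions with at least 2 control lists. The median mean percentile was 68.4 for members in a lncRNA span and 71.9 for the other 1169. A control peak lay within 1 kb of 200 members (14.1%), against 34.7% of common regions at gene ends, 11.5% in gene bodies and 12.9% over 50 kb away. By chromosome, members were between 5.50% (chromosome 14) and 9.03% (chromosome X) of merged flank regions, leaving out chromosome Y, which had no member among 5 flank regions.

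The members were nearest to 1210 protein-coding genes, 5.53% of the 21887 in the gene table and 14.6% of the 8286 that were nearest to any merged flank region. Of these genes 1044 had 1 member, 130 had 2 and 36 had at least 3. A common region in the body or at an end was found for 233 of them (19.3%), against 8.86% of all protein-coding genes. The latter include genes nearest to no flank region, and the share among the 8286 was not computed. Another common region lay within 12.5 kb of 339 members (23.9%), against 22.5% of common regions at gene ends, 20.6% in gene bodies and 9.38% over 50 kb away. Chained at that distance, 1145 members stood alone, and the rest formed 95 groups of 2, 25 of 3 and 2 of 4. Without wild type replicate 2 the number of genes was 1842.

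Socs3, the feedback inhibitor of LIF signalling through JAK and STAT3, had 7 members, the most of any gene. The gene itself (chr11:117966079-117970336, minus strand) is 4.26 kb long and held no common region in its body or at its ends. It was not free of target peaks. A merged region with its middle 0.992 kb inside the gene's start had folds of 12.1 and 9.12 in wild-type libraries, and 6.61 and 6.8 in FLAG-TET2 libraries. It had a peak in 1 control list, so it was not a common region. The strongest member lay 2.18 kb upstream (chr11:117972517-117972998), with folds of 16.2 and 11.9 in wild-type replicates 1 and 2, and 25.9 and 14.3 in FLAG-TET2 replicates 1 and 2. A second, 2.18 kb downstream (chr11:117963292-117963898), had folds of 14.8 and 10.8 in wild-type libraries, and 15.9 and 9.73 in FLAG-TET2 libraries. These lie on either side of the gene at the same distance. Over the 4 lists the first ranked from 33 to 183 among members and the second from 166 to 350.

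Another pair of members of Socs3 lay 5.03 and 6.02 kb upstream, with folds from 5.47 to 13.4. The remaining 3 lay 24.0, 31.4 and 33.5 kb downstream. The one at 31.4 kb (chr11:117934055-117934656) had folds of 13.9 and 8.04 in wild-type libraries, and 4.38 and 6.10 in FLAG-TET2 libraries. The one at 33.5 kb (chr11:117932200-117932605) had folds of 8.70 and 8.65 in wild-type libraries, and 4.57 and 5.49 in FLAG-TET2 libraries. Among members the first of these ranked 340 and 481 in the wild-type lists, and 1414 and 999 in the FLAG-TET2 lists. The second ranked 999 and 374 in the wild-type lists, and 1409 and 1118 in the FLAG-TET2 lists. Within 50 kb of Socs3 the lists held 25 merged regions, of which 6 had a control peak.

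**Figure D4:**
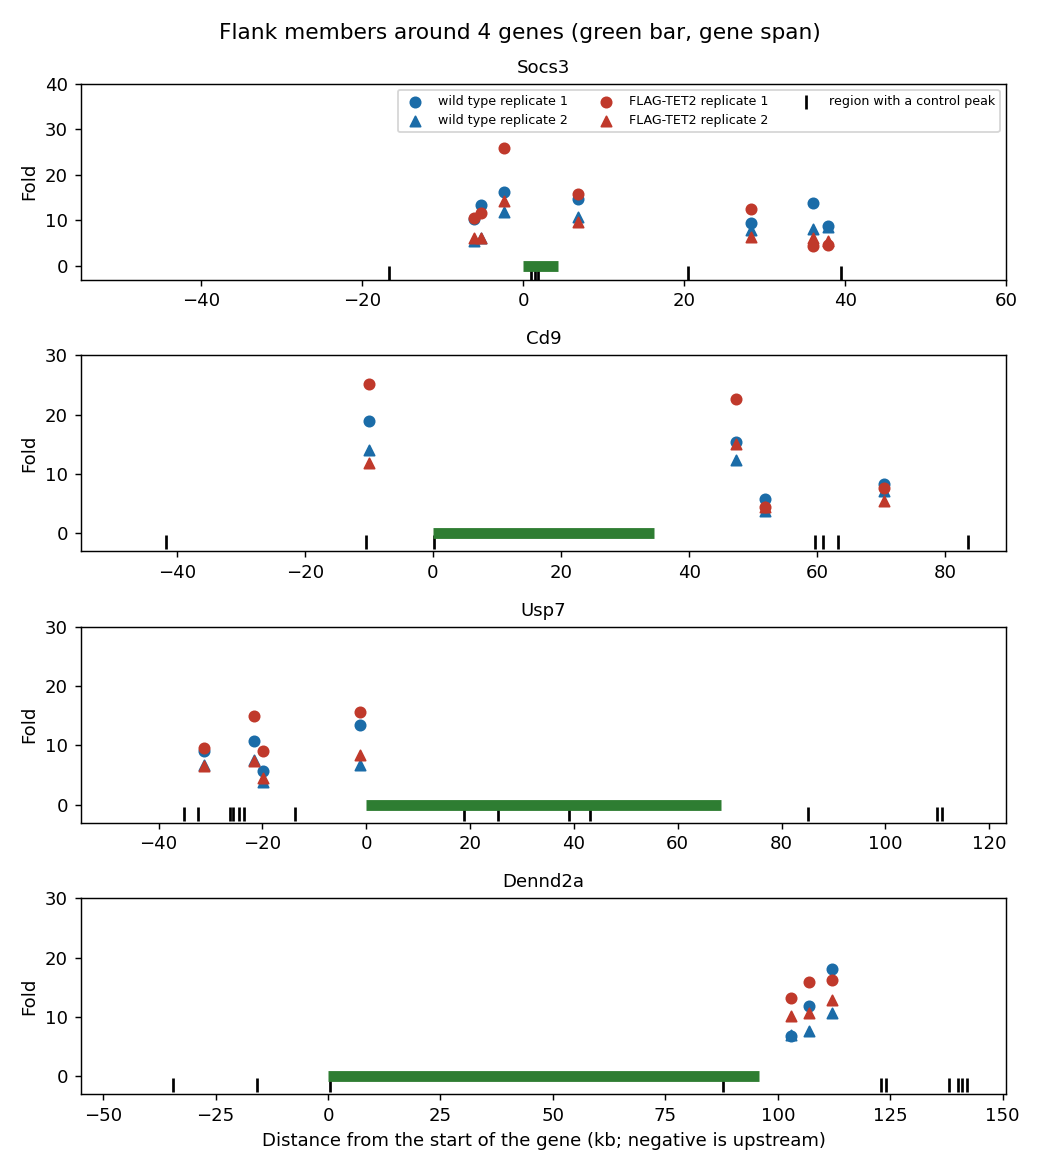
Members around the 4 genes with the most members whose strand is known (Socs3, Cd9, Usp7 and Dennd2a), by distance of the region's middle from the gene's start (kb, negative upstream) and authors' fold in each target list. The green bar is the gene span and black ticks mark merged regions with a control peak. The 7 members of Socs3 lie on both sides of the gene, whose span can hold no member by the rule. The 4 members of Usp7 all lie upstream.

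Cd9, which encodes a tetraspanin of the cell surface, had 4 members. The strongest lay 9.82 kb upstream in the span of the lncRNA Gm26728 (chr6:125504578-125504961), with folds of 18.9 and 14.1 in wild-type libraries, and 25.1 and 11.9 in FLAG-TET2 libraries. A second, 12.6 kb downstream (chr6:125447284-125447700), had folds of 15.3 and 12.4 in wild-type libraries, and 22.7 and 15.1 in FLAG-TET2 libraries. The other 2, 17.3 and 35.8 kb downstream, had folds from 3.83 to 8.38, below those of the first pair in every library. Close to the strongest member, whose middle lay 10.0 kb upstream, a separate merged region lay with its middle 10.5 kb upstream. That region had peaks in 2 control lists and in no wild-type list, and folds of 27.5 and 18.9 in FLAG-TET2 libraries. Within 50 kb of Cd9, 7 merged regions had a control peak.

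Usp7, a deubiquitinase gene, had 4 members, all upstream at 1.07 to 31.0 kb, with folds from 3.83 to 15.6. Dennd2a had 3, all 7.34 to 15.7 kb downstream, with folds from 6.82 to 18.1. Merged regions with a control peak within 50 kb numbered 14 for Usp7 and 10 for Dennd2a. Mcl1, an anti-apoptotic gene of the BCL2 family, had 3 upstream members at 3.51, 5.74 and 11.1 kb in a stretch of 8.05 kb. The strongest (chr3:95652224-95653432) had folds of 16.9 and 9.55 in wild-type libraries, and 21.3 and 12.5 in FLAG-TET2 libraries. Kcng3, a potassium channel subunit gene, had 3 members 22.6 to 35.9 kb upstream, and Plekha5 had 3 within 11.5 kb downstream. The groups of 4 members lay at Socs3, over 13.4 kb, and between Pag1 and Zfp704, over 15.3 kb.

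Genes of ES cells, of other cell types and of housekeeping were looked up in 18 lists of 312 genes, of which 77 were nearest to a member. The background is 5.53% of all protein-coding genes, or 14.6% of those nearest to any flank region. As a share of the whole list, the core pluripotency, naive state and FGF lists were highest, at 50.0%, 44.4% and 44.4%. Among list genes nearest to any flank region, the core pluripotency and DNA methylation lists were at 55.6%, the naive state, MYC and housekeeping lists at 50.0% and the FGF list at 47.1%. Genes used as markers of other cells or of housekeeping were also above 5.53%, at 28.6% of the feeder fibroblast list and 20.0% of the housekeeping list, so a share over the background was not particular to genes of pluripotency. No test was made between lists.

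**Figure D5:**
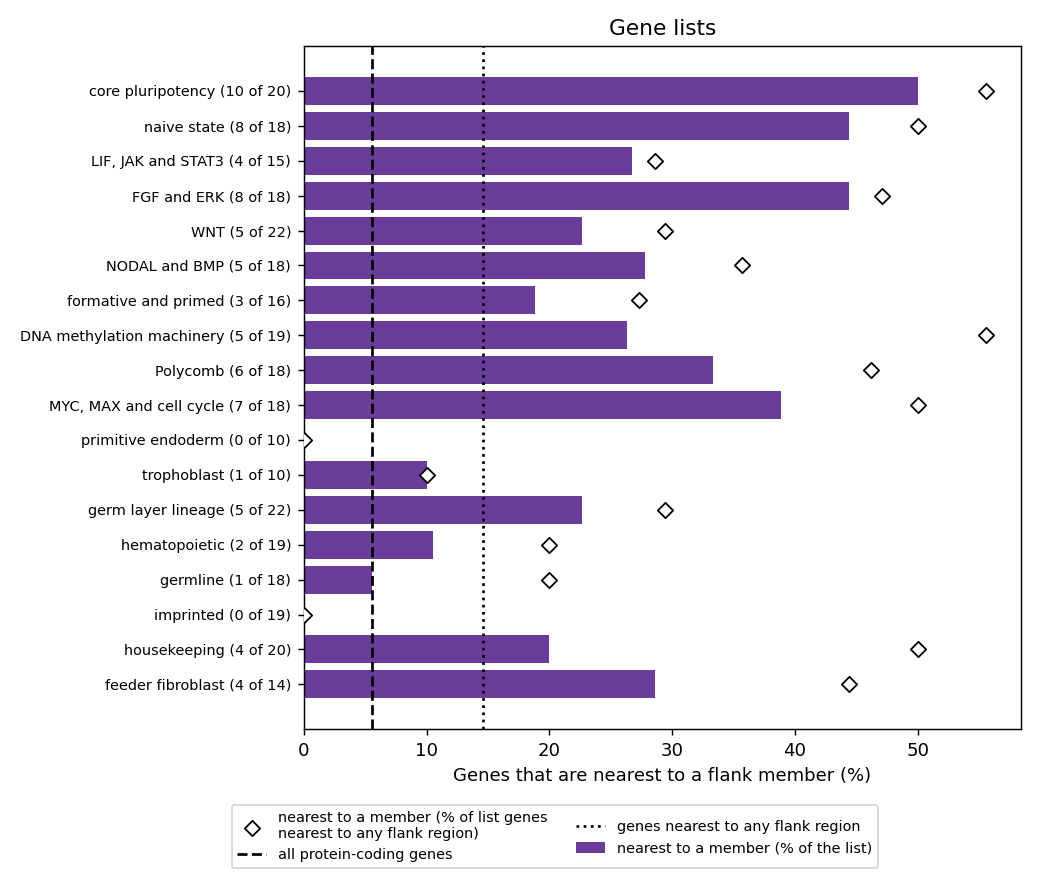
Share of each gene list that is nearest to at least 1 flank member (bars, percent of the list) and the same share among list genes nearest to any merged flank region (diamonds). The dashed line is 5.53% of all protein-coding genes and the dotted line 14.6% of genes nearest to any flank region; bars run from 0 for primitive endoderm and imprinted genes to 50.0% for core pluripotency.

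Of the core pluripotency list, 10 of 20 genes were nearest to 13 members, among them Pou5f1, Sox2, Sall4, Sall1, Prdm14, Utf1, Dppa2, Dppa5a and Zfp281. The strongest lay 15.7 kb downstream of Sox2, a partner of OCT4, in the span of the lncRNA Sox2ot (chr3:34668172-34668852), with folds of 14.5 and 13.6 in wild-type libraries, and 23.6 and 11.7 in FLAG-TET2 libraries. Pou5f1, which encodes OCT4, had members 3.01 and 15.3 kb upstream, given here after their values were seen. The nearer (chr17:35502306-35503017) had folds of 7.10 and 5.25 in wild-type libraries, and 9.12 and 7.47 in FLAG-TET2 libraries. It was below the member median in 3 of the 4 lists. Dppa5a had members 1.14 and 3.07 kb away, and Sall4 one at 23.7 kb. With the outer limit at 20 kb, 6 of the 20 genes were nearest to a member.

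Of the naive state list, 8 of 18 genes were nearest to 13 members. Klf2, a KLF factor that upholds the naive state, had a member 2.37 kb upstream (chr8:72316041-72316689), with folds of 17.9 and 13.3 in wild-type libraries, and 20.5 and 12.8 in FLAG-TET2 libraries. Tfcp2l1, a transcription factor downstream of LIF, had 2 members. The stronger lay 1.98 kb upstream (chr1:118625366-118625945), with folds of 12.8 and 8.01 in wild-type libraries, and 20.4 and 13.1 in FLAG-TET2 libraries. Klf5 had members at 11.2 and 26.3 kb, and Tbx3, Tcl1, Dppa3 and Tfap2c were among the other genes. The median percentile of the 13 members, 69.5, was close to the 71.5 of all members.

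Along the LIF pathway the ligand gene Lif, the receptor genes Lifr and Il6st and the inhibitor gene Socs3 were nearest to a member, 4 of 15 listed genes with 10 members. The member 8.32 kb upstream of Lifr (chr15:7081849-7082288) had folds of 11.1 and 6.97 in wild-type libraries, and 18.5 and 7.73 in FLAG-TET2 libraries. The one 1.21 kb upstream of Il6st, which encodes the shared receptor chain gp130 (chr13:112462337-112462859), had folds of 14.8 and 6.47 in wild-type libraries, and 14.1 and 8.43 in FLAG-TET2 libraries. Socs3 carried 7 of the 10.

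In the FGF and ERK list, 8 of 18 genes were nearest to 10 members: the receptor gene Fgfr1, the adaptor gene Grb2, the feedback inhibitor genes Spry1, Spry2, Spry4, Spred2 and Dusp5, and the target gene Etv4. The strongest lay 23.8 kb upstream of Spry2 (chr14:105920579-105921220), with folds of 15.3 and 9.67 in wild-type libraries, and 15.1 and 9.29 in FLAG-TET2 libraries. Near Fgfr1, a member at 4.97 kb (chr8:25513232-25513791) had folds of 14.0 and 9.78 in wild-type libraries, and 19.0 and 8.74 in FLAG-TET2 libraries. Inhibitors made up 5 of the 8 genes, and this was not compared with their share of the 18 listed genes.

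In the WNT list, 5 of 22 genes were nearest to 6 members, with a median percentile of 88.3, against 71.5 for all members. They were the nuclear factors Tcf7l1, Tcf7l2 and Lef1, Porcn, which acylates WNT ligands, and the secreted inhibitor gene Dkk1. The member 7.54 kb upstream of Lef1 (chr3:131101942-131102760) had folds of 17.4 and 11 in wild-type libraries, and 21.0 and 7.36 in FLAG-TET2 libraries. The one 3.03 kb downstream of Tcf7l1, a repressor of pluripotency genes (chr6:72623008-72623338), had folds of 13.2 and 9.38 in wild-type libraries, and 20.1 and 12.6 in FLAG-TET2 libraries. Without FLAG-TET2 replicate 2 the count was 9 of 22, and with the outer limit at 20 kb it was 3.

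In the NODAL and BMP list, 5 of 18 genes were nearest to 6 members, the receptor gene Acvr1b, the inhibitors Lefty1, Smad6 and Smad7 and the BMP target Id3. Near Acvr1b, a member 9.38 kb upstream (chr15:101164228-101164691) had folds of 17.9 and 14.6 in wild-type libraries, and 12.9 and 7.75 in FLAG-TET2 libraries. Among members it ranked 119 and 26 in the wild-type lists, and 646 and 586 in the FLAG-TET2 lists. The formative and primed list had 3 of 16 genes, Otx2, Foxd3 and Dnmt3b, and 6 without FLAG-TET2 replicate 2. Otx2, a transcription factor of the exit from the naive state, had members 1.09 kb downstream and 33.3 and 41.8 kb upstream, and the nearest (chr14:48654361-48655693) had folds of 13.8 and 8.19 in wild-type libraries, and 14.5 and 10.5 in FLAG-TET2 libraries.

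Members lay near 5 of 19 genes of DNA methylation and its removal: Tet1, Smug1, Dnmt3b, Gadd45a and Cxxc5. The member 8.02 kb upstream of Tet1 (chr10:62895486-62896089) had folds of 13 and 6.91 in wild-type libraries, and 11 and 8.52 in FLAG-TET2 libraries. The one 4.25 kb downstream of Gadd45a (chr6:67030471-67030847) had folds of 13.8 and 9.14 in wild-type libraries, and 9.44 and 10.3 in FLAG-TET2 libraries. Their median percentile, 58.9, was the lowest of the lists with at least 3 members, and with peaks of −log10 q of at least 5 only, 3 of the 19 genes were nearest to a member.

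Polycomb genes had 6 of 18, with 9 members: Ezh1, Eed, Suz12, Jarid2, Mtf2 and Kdm2b. Jarid2, which encodes an accessory subunit of PRC2, had 3, and the one 8.11 kb upstream (chr13:44721855-44722663, rank 29) had folds of 18.9 and 12.8 in wild-type libraries, and 27.7 and 14.8 in FLAG-TET2 libraries. The second, 1.89 kb upstream, had lower folds in every library, from 7.38 to 15.1. The MYC, MAX and cell cycle list had 7 of 18 genes with 8 members and a median percentile of 85.6: Myc, Mycn, Max, Mga, Ccnd3, Cdk6 and Cdkn1a. The member 1.26 kb upstream of Mycn (chr12:12943102-12944035) had folds of 17.7 and 10.8 in wild-type libraries, and 26.2 and 14.5 in FLAG-TET2 libraries. The one 14.8 kb upstream of Mga (chr2:119857246-119857741) had folds of 19.3 and 12.3 in wild-type libraries, and 18.5 and 11.5 in FLAG-TET2 libraries. MYC, MAX and MGA thus each had a member near their gene or, for the MYC family, near 2 of its genes.

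None of the 10 primitive endoderm and none of the 19 imprinted genes was nearest to a member, and 7 and 13 of them were nearest to some merged flank region. Their exact 95% binomial intervals, 0 to 30.8% and 0 to 17.6%, include the background of 5.53% of all protein-coding genes. These lists are too short to show a share below the background. The trophoblast list had 1 of 10 (Tead4), the germline list 1 of 18 (Dpep3) and the hematopoietic list 2 of 19 (Gfi1b and Hhex). The germline share, 5.56%, was close to the background. Without wild type replicate 2 the counts were 1 imprinted, 2 trophoblast and 4 hematopoietic genes. The germ layer list had 5 of 22, among them Neurog1, Msx2, Sox9 and Hoxb1.

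Of the feeder fibroblast list, Col3a1, Vim, Fn1 and Loxl1 were nearest to a member (4 of 14), and of the housekeeping list 4 of 20 genes were, Actb, Eef1a1 and Tfrc among them. The member 8.34 kb downstream of Col3a1, a fibrillar collagen gene (chr1:45358043-45358388), ranked 13 of all members, with folds of 23.5 and 14.2 in wild-type libraries, and 24.8 and 17.3 in FLAG-TET2 libraries. The member 16.4 kb from Actb, the cytoskeletal actin gene (chr5:142924333-142924923), had folds of 18.4 and 9.67 in wild-type libraries, and 17.9 and 9.15 in FLAG-TET2 libraries. The nearest gene is a label of position, and whether a member acts on it was not measured.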

How the data were processed

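Peak lists of 8 TET2 or FLAG ChIP-seq libraries of mouse ES cells were used. An input and an IgG library were not analysed here. Per the submitters' processing notes, Trimmomatic, Bowtie2, MACS2, DiffBind, DESeq2 and mm10 were used, with no versions, roles or order given. The deposited lists hold 1 library each and give for every peak a score, a fold enrichment (a linear ratio), −log10 p and −log10 q values and a summit offset, all the authors' own. Depth is unknown, and fold and q served to rank or filter within 1 list at a time.

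Peaks on 21 assembled chromosomes were merged at 1 shared bp and placed against protein-coding gene spans of the RefSeq table of GRCm38 (21887 genes). Strand came from RefSeq promoter windows, for 17492 of them and for 936 of the 1210 nearest genes. The lists matched 312 of 313 symbols. Flank shares were compared by an exact permutation test within reagent and percentiles by a sign-flip test over libraries, 1 main test each. The members were tested only against common regions at other positions, which passed the same peak rule, though its control part removed unlike shares by position. The code was tested on simulated intervals. Python 3.11.15, pandas 2.3.3, numpy 2.4.6 and scipy 1.17.1 were used. No genome was used, so sequence content of the members was not computed.

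Members and lists were chosen with earlier results of these data known. Regions named were the first 12 and last 3 by mean percentile of fold, the 3 widest, those of the 8 genes with most members, those at the limits, and up to 6 for each gene list; regions beside lncRNA starts and miRNAs, and Pou5f1, were added after their values were seen. Alternatives were other peak thresholds, list lengths, distance limits and control sets, leaving out each library, a replicate block, and 2 chosen after seeing the data (genes of every biotype; gene end peaks left out). A few genes named by those rules are not reported here.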

Additional observations from a re-analysis of the deposited data

How the results depend on the processing

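The number of members was 1418, and 1210 genes were nearest to one. With lists of equal length both numbers were 85. Leaving out 1 library at a time gave 1418 to 2327 members and 1210 to 1842 genes, the highest without wild type replicate 2. Other settings gave 998 members (nearest gene within 20 kb) to 1893 (knockout lists as the only control). The flank share difference, 4.65 points, was 4 to 5.21 with 1 library left out and 3.34 to 7.27 under other settings. With labels permuted over all 8 libraries, which ignores the reagent, its exact p was 0.0286, the smallest possible. With a replicate block it was 4.65 points with exact p = 0.125, again the smallest possible. The percentile difference, 2.43 points, was 1.75 to 2.67 with 1 library left out, and 2.43 with the replicate block (exact permutation p = 0.5). Whether the numbers pair the samples is not known. Deviations of same-numbered libraries correlated at -0.192 to 0.187 over group pairs, which cannot settle it for lists of such unlike length. The block only raised the smallest p that each test allows, so it could not have changed a call. The median summit distance over library pairs, 25 bp, was 21.3 bp in the members above the median percentile and 30.3 bp in those below it. The 77 listed genes were 77 to 96 with 1 library left out. Peak lists limit these counts, since a site missed in the shortest target list, wild type replicate 2, is no member.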
